A study of Mus musculus with 8 samples.

Results

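The 42 genes described here encode proteins that copy DNA (22 genes) and proteins that carry chromosomes through mitosis (20 genes). They were chosen by name, with current or older symbols matched to the gene names of the array, and each is represented by the brightest of its probes. All 42 had a probe on the array (54 probes in all), and 40 of them, 21 of replication and 19 of mitosis, had a probe bright enough to be tested among 40230 features. A feature is a gene, or a probe without a gene symbol.

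RNA was measured in cells carrying CD31 (PECAM-1), a surface protein found on endothelium, on platelets and on many leukocytes. The cells were enriched with antibody on magnetic beads from single mouse embryos at E12.5 on the C57Bl/6J background, after removal of liver and brain. The 4 embryos labelled Gata2 +9.5 mutant and the 4 labelled wild type were littermates from matings of carriers, and 2 litters each gave 2 embryos of either label. The sample descriptions write the mutants as Gata2+9.5-/-, that is, with the mutation on both copies. The mutation lies in an enhancer of Gata2, a GATA-family transcription factor that blood stem cells need to form, and it is present in all cells of the embryo and not only in those carrying CD31. Arrays 1 and 2 of each genotype come from litter 1, arrays 3 and 4 from litter 2, and 1 array was made per embryo. Values are log2 signals with 0 at the array's 75th percentile, and differences are mutant minus wild type.

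DNA replication starts when the origin recognition complex, Cdc6 and Cdt1 load the Mcm2 to Mcm7 helicase on DNA, and Cdc45 and the GINS complex switch that helicase on as S phase begins. Later in the cycle, cyclin B with Cdk1, the Plk1 and Aurora kinases and the spindle drive mitosis, and Cdc20 with the anaphase-promoting complex ends it. Transcripts of the first set are known to peak near the start of S phase under E2F factors, and those of the second in G2 and mitosis through the CHR element and CCAAT boxes, so that in a mixture of cells both sets are widely used as a measure of how many cells are dividing. In bulk RNA, fewer dividing cells and less RNA per dividing cell cannot be told apart.

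The promoters of these genes show the difference between the sets in their letters, which the choice of genes by name did not use. RefSeq promoter windows (build GRCm38.p6, 250 bases before to 50 after the start) were matched by symbol for 34 genes, 18 of replication with 19 windows and 16 of mitosis with 16. E2F-like words (TTTCCCGC, TTTCGCGC, TTTGCCGC or TTTGGCGC, on either strand) stood in 9 of 19 replication windows (47.4%) and in 1 of 16 mitosis windows (6.25%), against 2.26% of all 32851 windows. CHR-like words (TTTGAA or TTTAAA, either strand) stood in 15 of 16 mitosis windows (93.8%) and 5 of 19 replication windows (26.3%), against 27.6% of all windows. CCAAT, on either strand, was in 93.8% of the mitosis windows, 73.7% of the replication windows and 37.4% of all. A match is a description of the letters and no binding site, and neighbouring matches can overlap. The sequences below are shown because they carry these words. Capitals mark the words, and each sequence runs 5′ to 3′ up to the base before the annotated start.
Mcm6 (chr1:128359706-128359855, minus strand): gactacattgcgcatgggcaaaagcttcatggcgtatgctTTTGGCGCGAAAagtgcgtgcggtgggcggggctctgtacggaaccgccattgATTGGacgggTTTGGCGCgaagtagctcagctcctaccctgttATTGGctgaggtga
Cdc6 (chr11:98908001-98908150, plus strand): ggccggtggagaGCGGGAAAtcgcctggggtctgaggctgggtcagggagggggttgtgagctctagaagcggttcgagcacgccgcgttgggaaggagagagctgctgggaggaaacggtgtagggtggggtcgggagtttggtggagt
Orc1 (chr4:108579354-108579453, plus strand): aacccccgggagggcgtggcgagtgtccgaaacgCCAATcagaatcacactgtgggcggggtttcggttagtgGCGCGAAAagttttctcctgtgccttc
Cdk1 (chr10:69352913-69353062, minus strand): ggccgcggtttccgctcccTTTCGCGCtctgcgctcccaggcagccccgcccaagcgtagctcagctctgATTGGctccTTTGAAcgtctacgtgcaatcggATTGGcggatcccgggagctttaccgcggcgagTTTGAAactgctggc
Plk1 (chr7:122159335-122159434, plus strand): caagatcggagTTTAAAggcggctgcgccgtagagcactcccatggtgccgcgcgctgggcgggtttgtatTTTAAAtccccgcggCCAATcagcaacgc
Cdc20 (chr4:118437344-118437443, minus strand): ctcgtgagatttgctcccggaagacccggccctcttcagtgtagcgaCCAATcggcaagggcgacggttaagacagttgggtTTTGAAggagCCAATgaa
Top2a (chr11:99024190-99024289, minus strand): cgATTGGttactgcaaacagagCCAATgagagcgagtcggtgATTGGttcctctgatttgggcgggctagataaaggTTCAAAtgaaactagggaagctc
Ccnb1 (chr13:100786487-100786586, minus strand): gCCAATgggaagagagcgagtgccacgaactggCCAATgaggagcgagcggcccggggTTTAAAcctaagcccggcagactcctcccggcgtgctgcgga

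In Mcm6, a pair of overlapping E2F-like words began 110 and 106 bases before the start and another began 47 bases before it. Cdk1 was the mitosis gene with an E2F-like word, 131 bases before its start, and it also carried TTTGAA at 71 and 15 bases before it. In Plk1, Cdc20, Top2a and Ccnb1 a CHR-like word lay 29, 18, 23 and 42 bases before the start, with a CCAAT box within the same 100 bases. Bub1 was the mitosis gene without a CHR-like word in its window, and Birc5 the one without CCAAT.

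**Figure D1:**
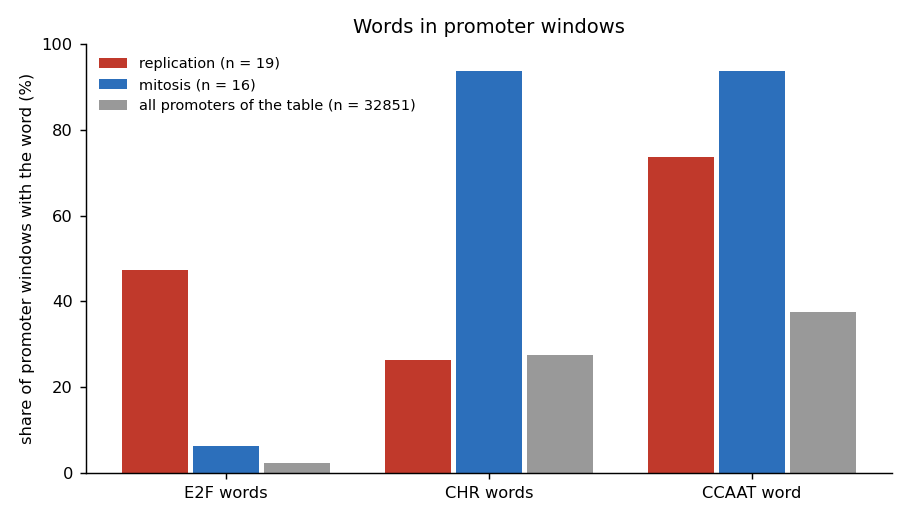
Share of promoter windows (%) that hold an E2F-like word, a CHR-like word or CCAAT on either strand, for replication genes (19 windows), mitosis genes (16 windows) and all 32851 windows of the table. The E2F-like words stand high in the replication genes (47.4%) and the CHR-like words in the mitosis genes (93.8%).

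Each array held 62976 spots, its 75th percentile of signal lay between 996 and 2481, and 74.95% to 92.05% of its spots were well above background. No member was saturated. Pecam1, which encodes CD31, lay between 2.18 and 3.75 on all arrays, and Gata2 itself between 0.89 and 2.00 in the wild type and between -1.27 and -0.15 in the mutants, without overlap. The arrays differ in their spread: the interquartile range of log2 signal was 4.00 to 4.39 on mutants 1, 2 and 3 and wild type 1, 3.42 to 3.69 on wild types 2, 3 and 4, and 2.91 on mutant 4. The number of arrays limits the precision of every value. The labels name separate embryos, with 1 array each. The spread between arrays thus holds differences between embryos and between measurements, which cannot be told apart.

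Replication and mitosis transcripts had higher means in the mutants, by a similar amount in both sets, and no member passed the test. Of the 40 tested members, 38 had a higher mean in the mutants, against 52.4% of all features, and only Cdk1 (-0.03) and Cenpf (-0.61) had a lower one. The median difference was 0.44 for the replication genes and 0.43 for the mitosis genes, with standard errors of single members between 0.31 and 0.46, and the median over all features was 0.05. By limma with Benjamini-Hochberg adjustment over all features, 0 members passed (adjusted p 0.717 to 0.967), as did 0.0447% of all features. At an unadjusted p under 0.05 the count of members was also 0 by limma, where 3.05% of all features passed. The level of a set was taken on each array as the median over its tested members. That level of the replication genes was 2.78 ± 0.57 (SD, n = 4) in the wild type and 3.24 ± 0.47 (SD, n = 4) in the mutants, and that of the mitosis genes 2.62 ± 0.53 and 3.01 ± 0.47 (SD, n = 4 each).

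The shift was shared with other features of the same brightness. Features other than the members with a mean signal between 2 and 4, where 17 members lie, had a median difference of 0.40 and were higher in the mutants in 96.8% of cases, while those 17 members had a median of 0.47. Above 4 the median was 0.42 for other features, 99.2% of them higher, and 0.44 for the 11 members. Between 0 and 2 it was 0.32 for other features, 83.9% of them higher, and 0.38 for the 5 members. Below 0 the other features had a median of -0.22, and the 7 members there had one of 0.21. Bright features thus lay higher and dim ones lower in the mutants, and most members are bright.

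**Figure D2:**
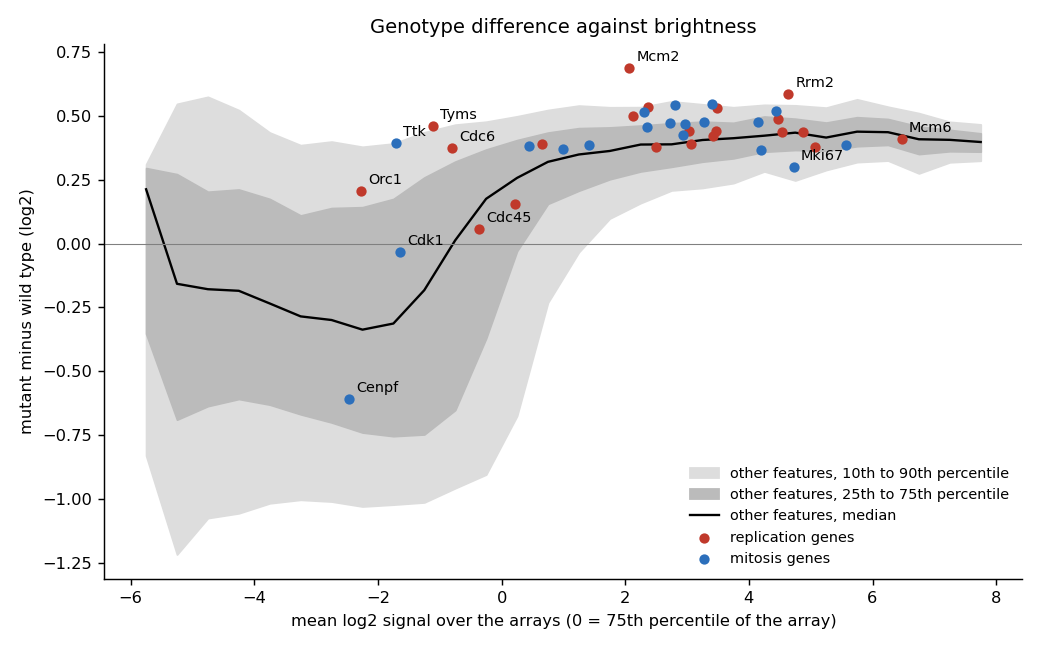
Mutant minus wild type (log2) against the mean log2 signal over the 8 arrays, for the 21 replication and 19 mitosis genes (points) and all other features in steps of signal (line: median; bands: the outer and the middle range of features, as given in the legend). Most members above a signal of 0 lie within or at the edge of the bands, and Mcm2 and Rrm2 lie above them. Among dim members Ttk, Tyms and Cdc6 lie high, and Cenpf lies within the middle band.

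To take this shift out, each member was set on each array against the median of the other features nearest to it in mean signal, as many for each member. On this relative scale the median of the members' own differences was 0.059 for the replication genes and 0.087 for the mitosis genes, and 31 of the 40 members were higher in the mutants, against 50.7% of all features centred in this way. The level of a set, the median over its members on each array, was higher in the mutants by 0.054 for the replication genes and by 0.039 for the mitosis genes. The pooled SD of these levels between arrays of a genotype was 0.071 for the replication genes and 0.078 for the mitosis genes. Both differences of levels were smaller than this spread of single arrays, which is not a test of the difference of means. The levels of the sets differed by -0.015 between genotypes (mitosis minus replication), with a pooled SD of 0.076, while by the median of members' differences the mitosis genes lay above the replication genes. Of the 40 members, 33 differed by less than 0.2 in either direction. Other features with a mean signal below 0 lay lower in the mutants (median -0.22). This scale thus raised the differences of the 7 members below 0, except that of Cdc45. When all features were centred in this way before the fit, 0 members passed the adjusted threshold (0% of all features did) and 0 had an unadjusted p under 0.05 (5.6% of all features did, limma).

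The order of the arrays shows the same pattern gene by gene. Wild type 3 was the lowest array for 33 of the 40 members and wild type 2 for 5, and mutant 1 was the highest for 29 and mutant 2 for 5. For 35 members the 3 lowest arrays were wild types 2 and 3 and mutant 4, as they were for 20.6% of all features and 52.6% of the 5841 features of equal brightness to a member. Among these 5841 features, wild type 3 was the lowest for 62.5% and mutant 1 the highest for 31.3%. Without wild types 2 and 3 and mutant 4, the median differences fell to 0.24 for the replication genes and 0.20 for the mitosis genes. Without wild type 3 alone they were 0.24 and 0.27, and without wild type 1 they were 0.66 and 0.65.

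**Figure D3:**
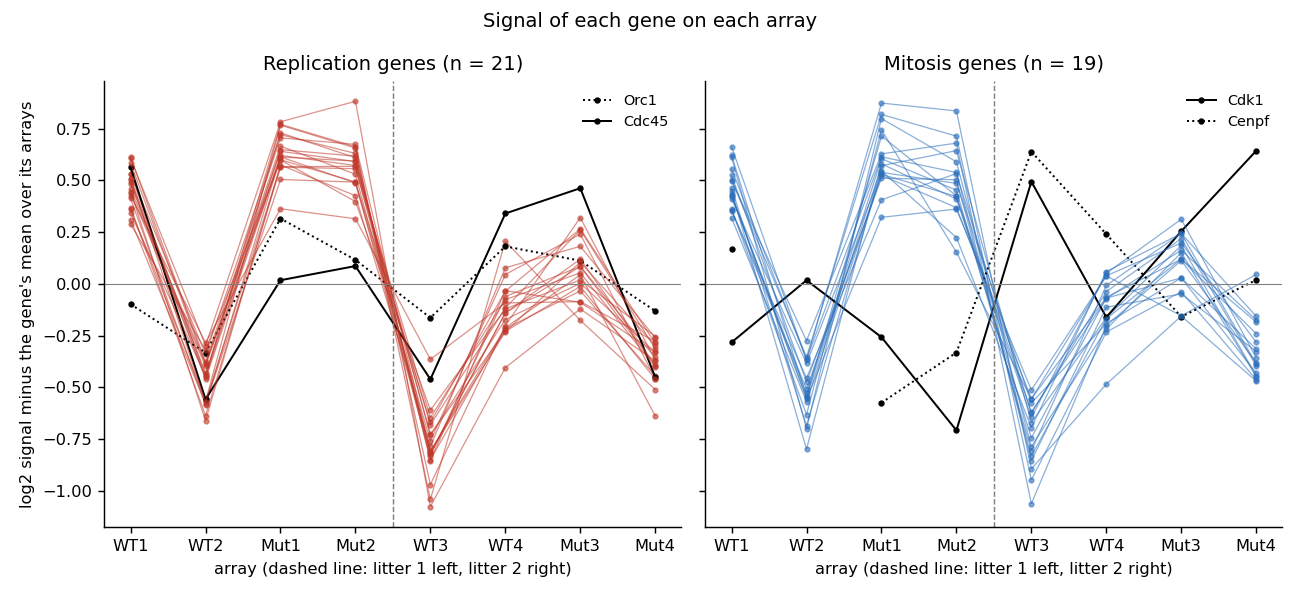
Log2 signal of each member on each array after subtraction of the gene's own mean, for 21 replication genes (left) and 19 mitosis genes (right), with litter 1 to the left of the dashed line. Nearly all lines run in parallel, high on wild type 1 and mutants 1 and 2 and low on wild types 2 and 3 and mutant 4, and Cdk1 and Cenpf (right) and Cdc45 and Orc1 (left) depart from them.

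The 6 subunits of the Mcm2 to Mcm7 helicase, the ring that unwinds DNA at the fork, gave similar differences, with Mcm2 somewhat apart. Mcm6 (probe at chr1:130228178-130228237 of mm9) measured 6.93, 6.08, 5.64 and 6.41 on wild types 1 to 4 and 7.07, 6.96, 6.55 and 6.11 on mutants 1 to 4. Mutants 1 to 3 lay among or above the upper wild type arrays and mutant 4 beside wild type 2, and the groups overlapped. The difference of Mcm6 was 0.41 (SE 0.39, limma adjusted p = 0.717), and relative to features of equal brightness it was -0.01. On that scale Mcm6 held its level within 0.10 over all 8 arrays. The differences of Mcm3, Mcm4, Mcm5 and Mcm7 were 0.44, 0.44, 0.44 and 0.49, and relative to equal brightness 0.02, 0.02, 0.04 and 0.06.

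Mcm2 stood above the rest of the ring. It measured 2.43, 1.5, 1.1 and 1.87 in the wild types and 2.83, 2.72, 2.39 and 1.70 in the mutants, a 1.61-fold difference of means (0.69, SE 0.40, limma adjusted p = 0.717). Relative to features of equal brightness it lay between -0.27 and -0.05 in the wild types and at 0.28, 0.20, 0.22 and -0.09 in the mutants. The groups overlapped by mutant 4 alone. The relative difference was 0.31, and the limma adjusted p after centring was 0.704.

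Mcm3 was read by a pair of probes that overlap by 43 bases and differ at 1 of them, A31G, counted from the 5′ end of the brighter probe. They are shown because they read the same stretch of the transcript with different letters, the differing base in capitals.
Mcm3, brighter probe, bases 18 to 45: aagctttctttgcAattagactagtatg
Mcm3, dimmer probe: aagctttctttgcGattagactagtatg

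The dimmer probe gave a difference of 0.43 and the brighter one 0.44. Other genes with several detected probes (Birc5, Ccnb1, Ccne1, Cdc6, Mki67, Rfc4 and Tpx2) also gave differences of the same sign from each of them.

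The licensing factors Cdc6, Cdt1 and Orc1 differed by 0.37, 0.42 and 0.21. Cdt1, bright like the helicase genes, was at 0.01 relative to equal brightness, whereas the dim Cdc6 and Orc1 were at 0.50 and 0.52. Orc1, the ATPase subunit of the origin recognition complex, measured -2.37, -2.60, -2.43 and -2.09 in the wild types and -1.96, -2.15, -2.16 and -2.40 in the mutants. Its arrays spanned only 0.65, the narrowest range of all tested members, and mutant 1 alone lay above all wild types. Relative to equal brightness, Orc1 in the wild types was 0.20, -0.57, -0.75 and 0.07 and in the mutants 0.82, 0.59, 0.39 and -0.77. The groups overlapped on both scales, and the limma adjusted p of Orc1 was 0.752.

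Of the helicase activators, Gins1 and Gins2 of the GINS complex differed by 0.50 and 0.38, and Cdc45 by 0.06. Cdc45 measured 0.20, -0.92, -0.83 and -0.03 in the wild types and -0.35, -0.28, 0.10 and -0.82 in the mutants, with full overlap. It did not rise on mutants 1 and 2 as other replication genes did: wild type 1 was its highest array. The sign of the Cdc45 difference turned without wild type 2 (-0.12), without wild type 3 (-0.09) and without mutant 3 (-0.09).

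Pcna, the sliding clamp that holds polymerases on DNA, measured 5.66, 4.69, 4.35 and 4.85 in the wild types and 5.71, 5.67, 5.06 and 4.61 in the mutants. Mutants 1 and 2 lay beside wild type 1 and mutant 4 among the other wild types. The difference of Pcna was 0.38 (SE 0.40, limma adjusted p = 0.717) with the array percentile and -0.03 relative to equal brightness, and with quantile normalization it was also -0.03. Prim1 and Pola1, of the polymerase alpha-primase complex that starts each DNA strand, differed by 0.44 and 0.39, and Rfc4 of the clamp loader by 0.39. Rfc3 of the same loader measured 0.65, -0.06, -0.14 and 0.13 in the wild types and 0.59, 0.54, 0.14 and -0.06 in the mutants. Its difference was 0.16 and, relative to equal brightness, -0.09, the lowest of the replication genes.

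The enzymes of nucleotide supply had the highest median of the replication roles with several members (0.53). Rrm1 and Rrm2, the subunits of ribonucleotide reductase, differed by 0.53 and 0.59, and relative to equal brightness by 0.14 and 0.17. Tyms, thymidylate synthase, measured -0.66, -1.77, -1.90 and -1.03 in the wild types and -0.54, -0.69, -0.93 and -1.37 in the mutants. Wild types 2 and 3 and mutant 4 were lowest, and the groups overlapped. The difference of Tyms was 0.46 (SE 0.39, limma adjusted p = 0.717), and relative to equal brightness 0.62, the largest of the replication genes.

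Ccne1, cyclin E1 of the G1 to S transition, differed by 0.53 (SE 0.37, limma adjusted p = 0.717). Relative to features of equal brightness it was -0.03, -0.23, -0.01 and -0.12 in the wild types and 0.10, 0.08, 0.14 and 0.01 in the mutants. The groups did not overlap on this scale, as for 0.868% of all features in that direction, and the gap was narrow. Ccne1 was the only member of which this held, and it was overlapping before the shift was taken out.

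Among mitosis genes, the cyclins Ccna2, Ccnb1 and Ccnb2 differed by 0.48, 0.47 and 0.37, and relative to equal brightness by 0.09, 0.11 and -0.06. Cdk1, their kinase partner, did not follow them on its brightest probe. That probe measured -1.92, -1.62, -1.14 and -1.80 in the wild types and -1.90, -2.35, -1.38 and -0.9955 in the mutants, highest on mutant 4, where nearly all other members were low. Its difference was -0.03 (SE 0.38, limma adjusted p = 0.967), and 0.25 relative to equal brightness. A dimmer probe of Cdk1 measured -1.5, -2.01, -4.86 and -4.38 in the wild types and -0.92, -1.09, -3.90 and -3.93 in the mutants. On it the litters stood far apart (litter 2 minus litter 1, -2.89), and the genotype difference was 0.73. The Cdk1 probes therefore disagree, and the sign for Cdk1 rests on which is read.

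The mitotic kinases Plk1 and Aurka differed by 0.55 and 0.52, and relative to equal brightness by 0.14 each. Birc5, survivin of the chromosomal passenger complex, measured 6.13, 5.21, 4.72 and 5.46 in the wild types and 6.18, 6.11, 5.52 and 5.24 in the mutants. Mutants 1 and 2 lay beside wild type 1, and mutant 4 beside wild type 2. The difference of Birc5 was 0.39 (SE 0.40, limma adjusted p = 0.717), and it was -0.04 relative to equal brightness and -0.03 with quantile normalization.

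The spindle checkpoint genes Bub1 and Bub1b differed by 0.37 and 0.39, and Cdc20, the activator of the anaphase-promoting complex, by 0.52. Relative to equal brightness these were 0.04, 0.05 and 0.09. Ttk, the checkpoint kinase Mps1, measured -1.35, -2.34, -2.27 and -1.67 in the wild types and -0.97, -1.56, -1.87 and -1.67 in the mutants. Mutant 1 was its highest array, and the other mutants lay among the wild types. The difference of Ttk was 0.39 (SE 0.37, limma adjusted p = 0.717), and 0.69 relative to equal brightness, the largest of all members. Against features with a gene symbol only, Ttk was at 0.61, Tyms at 0.51, Orc1 at 0.46 and Cdc6 at 0.32. On that scale 5 of the 7 members with a mean signal below 0 were higher in the mutants.

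At the centromere, Cenpa, the histone variant that marks it, and the motor Cenpe differed by 0.43 and 0.47. Cenpf, a large protein of the kinetochore, had a lower mean in the mutants. It measured -2.30, -1.83 and -2.23 on wild types 1, 3 and 4, its spot on wild type 2 being left out as marked by the scanner software, and -3.04, -2.80, -2.63 and -2.45 in the mutants, so that the fit used 3 wild types. All mutants lay below all measured wild types, as for 0.534% of all features, while no member was higher without overlap (0.505% of all features). These shares cover features of every brightness, and groups with fewer values separate more readily. Cenpf was 1.53-fold lower by means (-0.61, SE 0.35, limma adjusted p = 0.717). Other features near its brightness had a median difference of -0.34 and a 25th percentile of -0.74. Relative to equal brightness the wild types were 0.46, -0.02 and 0.20 and the mutants -0.02, 0.23, 0.13 and -0.67, which overlapped, and the difference was -0.29.

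The spindle motors Kif11 and Kif20a and the spindle assembly factor Tpx2 differed by 0.38, 0.54 and 0.46, and relative to equal brightness by 0.12, 0.13 and 0.11. Top2a, the topoisomerase that separates sister chromosomes, measured 3.18, 1.93, 2.08 and 2.78 in the wild types and 3.31, 3.14, 3.04 and 2.37 in the mutants. Mutants 1 to 3 were close together, and mutant 4 lay among the wild types. Its difference was 0.47 (SE 0.39, limma adjusted p = 0.717), and 0.08 relative to equal brightness.

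Mki67, the proliferation marker Ki-67 that coats mitotic chromosomes, measured 5.16, 4.17, 4.21 and 4.76 in the wild types and 5.05, 5.09, 4.92 and 4.44 in the mutants. Wild type 1 was its highest array, and the groups overlapped. The difference of Mki67 was 0.30 (SE 0.35, limma adjusted p = 0.720). Relative to equal brightness it was -0.12, with quantile normalization it was -0.11, and after Cenpf it was the lowest mitosis gene.

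**Figure D4:**
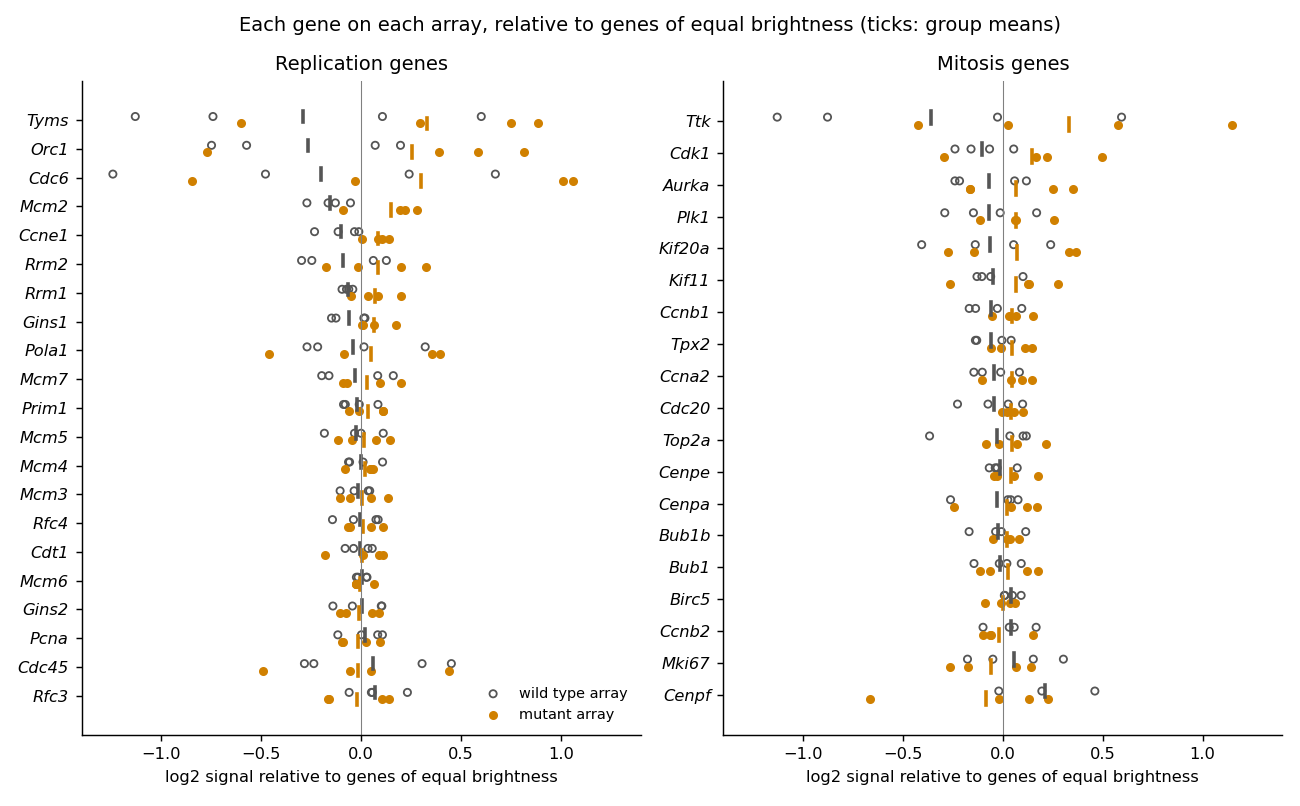
Log2 signal of each member on each array relative to the features of equal brightness, replication genes left and mitosis genes right, ordered by the genotype difference (open points: wild type arrays; filled: mutant arrays; ticks: group means). The points of bright genes such as Mcm6 and Birc5 lie within 0.2 of 0 in both groups, while those of the dim genes Tyms, Orc1, Cdc6 and Ttk spread over more than 1 log2 unit.

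Aurkb, the Aurora kinase of the passenger complex, and Ccne2, cyclin E2, gave no value, because their only probes were well above background on 0 of the 8 arrays. Another probe of Cdk1 was likewise at background on all arrays. The 30 bases at the 5′ end of these probes are printed, with those of probes that were detected, because they show how rich in A and T the undetected ones are.
Aurkb, not detected: ttcagaaaaattatgaagaacaacatttta
Ccne2, not detected: ttataaactattgttaagatatgaagtttt
Cdk1, not detected: aacttaattaacatgtaaatattattccat
Cdk1, dimmer detected probe: ttcttaatttcctacgtataacttaattaa
Aurka, detected: gggtttctttttctgcatgttaaaggctat
Ccnb2, detected: cctaggcactggactccgatcctgcgcttc

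Over their 60 bases the Aurkb, Ccne2 and undetected Cdk1 probes held 20%, 15% and 18.3% G and C. Of the 54 member probes, 4 lay under 25%, and 3 of those were the undetected ones. The other, the dimmer Cdk1 probe at 18.3%, was detected and had the litter difference given above. Of all 354 probes of the array under 25% G and C, 61.6% were not well above background on any array, against 2.29% of probes at 40 to 50%. A missing signal from such probes cannot show that these cells lack Aurkb or Ccne2 transcripts, and why it is missing was not tested.

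**Figure D5:**
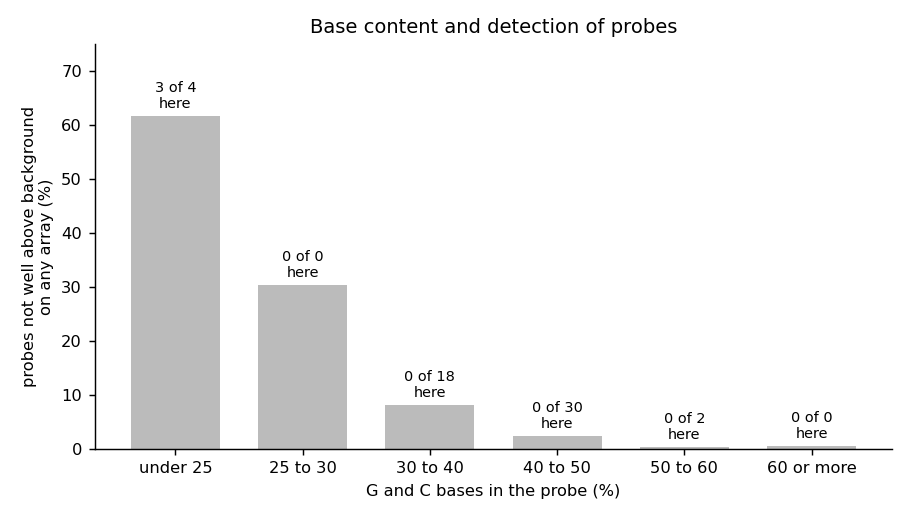
Share of all non-control probes (%) that were not well above background on any of the 8 arrays, by their content of G and C bases, with the count of member probes of which this holds above each bar. The share falls from 61.6% under 25% G and C to 2.29% at 40 to 50%, and all 3 undetected member probes lie in the first bar.

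The difference between litters was of a similar size. As far as earlier results of these data say, it cannot be told apart from a difference between array slides, which the labels do not name. Members were lower in litter 2, with a median of -0.61 for the replication genes and -0.48 for the mitosis genes (litter 2 minus litter 1, with genotype in the model), and 38 of 40 were lower, against 36% of all features. By limma 0 members passed the adjusted threshold, while 4.02% of all features were higher and 0.895% lower, and 7 members had an unadjusted p under 0.05, all lower in litter 2, against 7.86% of all features. The lowest were Kif20a at -1.0 (limma adjusted p = 0.0935) and Rrm2 at -0.99 (limma adjusted p = 0.0948). Relative to equal brightness, the litter difference of the levels was -0.11 for the replication genes and -0.003 for the mitosis genes, and the median of the members' own differences was -0.11 and -0.03. Cdk1 (0.61) and Cenpf (0.34) were the members higher in litter 2.

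Within litter 1 the median genotype difference was 0.59 for the replication genes and 0.53 for the mitosis genes, and within litter 2 it was 0.29 for both. Relative to equal brightness the difference of the levels was 0.091 and 0.071 in litter 1 and 0.017 and 0.007 in litter 2. The test of the difference between litters, an interaction term in limma, called 0 members (0% of all features), and 0 had an unadjusted p under 0.05 (1.22% of all features).

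The other genes of these pathways also had positive medians, with more exceptions in some lists. Of 40 other replication genes 39 had a higher mean in the mutants (median difference 0.38), as did 44 of 47 other tested mitosis genes (median difference 0.41; Cenpi of the kinetochore was at -1.07). The E2F, Rb and mitotic transcription factors were higher in 18 of 18 (median 0.34), and the G1 cyclins and their kinases in 7 of 7 (median 0.49). CDK inhibitors and exit genes were higher in 10 of 15 (median 0.32, with Cdkn2a at -0.89) and replication checkpoint and repair genes in 11 of 18 (median 0.27, with Fanci at -1.06 and Atm at -0.68). These 4 genes are named for their low values, after those were seen. In none of these 6 lists did a gene pass limma's threshold, adjusted or unadjusted, where 0.0447% and 3.05% of all features passed. After equal-brightness centring their medians lay between 0.02 and 0.11.

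Markers of some other cells moved with genotype or litter, and their part in the values above was not tested. Of all features, 52.4% had a higher mean in the mutants and 0.0447% passed limma's adjusted threshold for genotype. Platelet and megakaryocyte markers had a genotype median of -2.75 (11 of 11 lower, 3 past limma's adjusted threshold). Their summed linear level was 55.6 to 110.4 times the array's 75th percentile in the wild types and 11.8 to 22.1 in the mutants. Granulocyte and mast cell markers had a median of -1.58 (14 of 15 lower, 5 past the threshold) and sums of 25.5 to 42.2 and 8.57 to 12. Endothelial markers had a median of 0.23 (12 of 16 higher, 0 past the threshold), which turned to -0.18 (3 of 16 higher) after equal-brightness centring, with sums of 356 to 1176 and 437 to 1076. Muscle and heart markers had a median of 0.57 (9 of 12 higher, 0 past the threshold) and of 0.28 after centring, with sums of 9.48 to 15.2 and 11.8 to 17.9. General leukocyte markers had a median of -0.94 (10 of 12 lower, 0 past the threshold). Erythroid markers had a genotype median of 0.37, with sums of 332 to 2020 in the wild types and 715 to 1977 in the mutants. The genotype medians of neural and mesenchyme markers were 0.27 and 0.13. Those of stem and progenitor, macrophage and epithelial markers were -0.04, -0.23 and -0.33. Of these 5 lists and the erythroid one, only the stem and progenitor list held a gene past the threshold (1, lower). Between litters, erythroid markers had a median of 1.54 and macrophage markers one of 1.5 (higher in litter 2), and endothelial markers one of -1.06. Muscle and heart, neural, mesenchyme and epithelial markers had litter medians of 0.81, 0.68, 0.54 and 0.52.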

How the data were processed

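The authors' deposited scanner files give, per the file headers, the intensity of each spot, background-subtracted by Agilent Feature Extraction on 1 channel and annotated on mm9; no step between arrays had been applied. From these, log2 intensity minus the array's 75th percentile was taken, without control and outlier spots, and repeated spots of 1 probe were averaged. Features had at least 4 arrays well above background and 3 values per group, and the brightest probe stood for a gene. The authors' deposited table of log2 values served as an alternative; the submitters' processing notes name limma for it, and its fold change and p-value columns were not used for any printed result. The test was limma 3.58.1, run in R 4.3.3 (two-sided, genotype as the term, threshold 0.05, Benjamini-Hochberg over 40230 features). The relative scale uses 201 features, and 51 and 1001 were tried, as were features with a gene symbol only. The fit was tested on simulated data. Of 55681 probes, 26762 were named by RefSeq accession, 4458 by symbol or synonym and 2044 kept the file's name.

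Litter is a shared litter per the labels and was tried as a block. As far as earlier results of these data say, the arrays of a litter also share a slide, so litter and slide cannot be told apart. Sample numbers do not pair the embryos: the correlations of same-numbered deviations were 0.62, -0.03, -0.10 and -0.16.

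The members and lists were chosen with earlier results of these data known. The naming rule gave per-array values for the highest and lowest 2 genes of each set on the relative scale, members whose groups did not overlap, and Mki67, Pcna, Top2a, Mcm6 and Birc5; Mcm2 was added after its values were seen. Depth is not defined for arrays, and their number limits the precision.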

Additional observations from a re-analysis of the deposited data

Results flagged for a closer look

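Of 166 groups of 4 arrays examined, 5 held an array far from the other 3, fewer than the 1 in 20 that chance gives, and all were values relative to features of equal brightness. On mutant 3, Mcm4 was at -0.080, against 0.05 to 0.06 on the other mutants. On mutant 1, Mcm6 was at 0.065, against -0.03 on each of the others, and Ccnb2 at 0.15, against -0.10 to -0.06. On wild type 2, Cenpa was at -0.26, against 0.02 to 0.08, and Top2a at -0.37, against 0.04 to 0.12.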

How the results depend on the processing

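No member passed the adjusted threshold under any alternative run, and the medians of both sets stayed above 0 in each. They were 0.70 and 0.69 with median scaling, which moves the median of all features from 0.05 to 0.32, and 0.13 and 0.12 with quantile normalization. Leaving out 1 array at a time gave 0.24 to 0.66 for the replication genes and 0.27 to 0.65 for the mitosis genes, and for their levels relative to equal brightness 0.026 to 0.084 and -0.0009 to 0.069; the difference between the levels of the sets ran from -0.050 to 0.014. With litter as a replicate block, 0 members and 0 features passed; with the sample number as a block, 0 members did. Signs of small differences turned. With equal-brightness centring, an alternative added after seeing the data, the differences were -0.036 for Birc5, -0.059 for Ccnb2, -0.053 for Cdc45, 0.23 for Cdk1, -0.011 for Gins2, -0.0079 for Mcm6, -0.12 for Mki67, -0.033 for Pcna and -0.092 for Rfc3. With quantile normalization they were -0.031 for Birc5, -0.031 for Ccnb2, 0.23 for Cdk1, -0.016 for Mcm6, -0.11 for Mki67 and -0.028 for Pcna, and with normexp before it -0.024, -0.053, 0.18, -0.0078, -0.093 and -0.00058. Cdk1 was 0.35 as the mean of its detected probes and 0.23 with median scaling. It was 0.99 in the authors' deposited log2 values, which lack its brightest probe, so that its dimmer detected probe was read. In litter 2 alone Cdk1 was 0.28 and Orc1 -0.018. Cdc45 was -0.26 without wild types 2 and 3 and mutant 4. Leaving out 1 array at a time gave -0.12 to 0.26 for Cdc45 and -0.25 to 0.20 for Cdk1, and turned the sign of each in 3 cases. Apart from the change of probe for Cdk1, the cause of these turns was not tested.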
